A study of Mus musculus with 4 samples.

Results

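The MAST kinase genes Mast1, Mast2, Mast3, Mast4 and Mastl were described in whole testes of control and Mps1sKO mice. The 5 genes were taken by their symbols from a table of 55820 loci. They were picked with the difference between the genotypes already known, since the lower level of Mast3 in Mps1sKO testes was part of the choice. Differences between the genotypes are therefore given for these 5 genes as descriptions, with no test. All 5 passed the filter on low counts, which kept 20561 loci.

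RNA was taken from whole testes of male C57BL/6J mice at P10 (postnatal day 10), with 2 libraries labelled control and 2 labelled Mps1sKO. In Mps1sKO mice a floxed Mps1 gene (symbol Ttk) was deleted by Stra8-Cre, which is made in germ cells from P3 and rises until P7. The floxed line came from targeted embryonic stem cell clones. The labels do not say whether control mice carried floxed alleles or Cre, nor whether a library came from 1 mouse, so p-values measure the spread between these libraries, which may be technical. Somatic cells of the testis keep Mps1 in this design, and every value is a mixture of germ and somatic RNA.

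MAST proteins (microtubule-associated serine/threonine kinases) belong to the AGC family, named after protein kinases A, G and C. Mast1 to Mast4 encode large proteins with a kinase domain and a PDZ domain, a module that holds the tails of partner proteins. MAST2 was first purified as a testis protein bound to microtubules of the manchette, the array that shapes the spermatid head, and MAST1 and MAST2 bind syntrophins of the dystrophin complex. MAST3 phosphorylates ARPP-16, an inhibitor of protein phosphatase 2A (PP2A). Mastl encodes Greatwall, which has no PDZ domain and works in the cell cycle. At mitotic entry Greatwall phosphorylates ENSA and ARPP19, which then block PP2A carrying a B55 subunit, so that the substrates of cyclin-dependent kinase 1 stay phosphorylated.

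The 2 members with the lowest Mps1sKO levels relative to control were Mast3 and Mastl, and the bases before their annotated start sites are shown for that reason. Each run is 250 bases long, reads 5′ to 3′ on the strand of the gene and ends 1 base before the RefSeq start site (GRCm38.p6). The Mast3 run is chr8:70792434-70792683 on the minus strand and that of Mastl is chr2:23156025-23156274, also on the minus strand. Capitals mark the motif CNCCTCAG, which is known as a binding motif of STRA8, or the CCAAT box, CCAAT, each searched on both strands.
Mast3: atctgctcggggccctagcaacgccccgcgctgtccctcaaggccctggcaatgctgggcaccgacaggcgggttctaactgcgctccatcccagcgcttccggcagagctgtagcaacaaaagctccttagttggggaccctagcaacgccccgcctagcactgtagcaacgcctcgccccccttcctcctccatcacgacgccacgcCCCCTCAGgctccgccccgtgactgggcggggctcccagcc
Mastl: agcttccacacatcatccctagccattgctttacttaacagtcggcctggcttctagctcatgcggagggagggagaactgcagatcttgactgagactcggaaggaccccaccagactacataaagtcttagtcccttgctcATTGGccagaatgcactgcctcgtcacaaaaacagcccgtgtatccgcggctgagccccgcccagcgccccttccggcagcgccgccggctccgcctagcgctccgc
The Mast3 run held 1 match to CNCCTCAG, which began 41 bases before the start site and overlapped neither of its 2 matches to GGGCGG (the GC box). The Mastl run held 1 CCAAT box on the opposite strand, beginning 107 bases before the start site, and 1 GC box, with no overlap between them. Among 32851 RefSeq promoter windows of the same length, 6.42% held CNCCTCAG, 33.8% held CCAAT and 32.7% held GGGCGG. The letters TTTGAA, known as the cell cycle homology region (CHR) of genes used in mitosis, was in 16.0% of the windows and in none of the members' windows. The windows of Mast1, Mast2 and Mast4 held no CNCCTCAG. Their GC content ran from 68.0% to 78.0%, against 67.6% for Mast3 and 59.6% for Mastl. The match is a description of letters and not a binding site.

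The start site used for Mast3 lies 12621 bases inside the gene as annotated in GENCODE M21. The gene (ENSMUSG00000031833, chr8:70778117-70805054, minus strand) has 11 annotated transcripts, 9 of them coding, and 4 begin within 100 bases of that site. Counts were summed over the whole gene, so they do not say which start site was in use. The longest coding transcript has 27 exons and 3963 coding bases. Mastl (ENSMUSG00000026779, chr2:23115606-23156024, minus strand) has 2 transcripts, 1 of them coding, with 12 exons and 2595 coding bases. Mast1 (ENSMUSG00000053693, chr8:84911903-84937359), Mast2 (ENSMUSG00000003810, chr4:116306762-116464183) and Mast4 (ENSMUSG00000034751, chr13:102732486-103334497) are on the minus strand too. Mast4 spans 602.0 kb and Mast2 157.4 kb, against 26.9 kb for Mast3. No 50-base word of any member's exons occurred in another member. Of the Mast1 words, 22.1% were shared with Dnase2a, a gene on the opposite strand that overlaps it. Mast4 shares 0.424% of its words with Cd180, which also overlaps it on the opposite strand. The strandedness of the counting is not given in the sources used here, so reads of Mast1 and Dnase2a in that stretch cannot be told apart.

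The 4 libraries held between 23311689 and 28607746 counts. Replicate libraries were not alike within sampling noise (chi-square over degrees of freedom, 8.49 for control and 11.6 for Mps1sKO). The targeted gene Ttk had 27.9 and 32.6 CPM (counts per library total of 1000000, after TMM scaling) in control and 13.0 and 12.2 CPM in Mps1sKO libraries. Both Mps1sKO libraries lay below both control libraries, at a log2 fold change of −1.26 ± 0.129 (SE, edgeR adjusted p = 0.0461). The adjusted p of Ttk was 0.224 under the replicate block, 0.0745 by limma-voom, 0.0573 with at least 10 counts in every library and 0.0509 with annotated genes only, which ends the call in each. Under the other planned settings with all 4 libraries it stayed below 0.05. It was 2.57e-09 by DESeq2, 1.11e-14 by edgeR with no filter on low counts, and 0.03 to 0.0479 by edgeR otherwise. Counts cover the whole gene, of which Cre removes only some exons, so reads from somatic cells, from germ cells that kept the gene and from the deleted allele cannot be told apart. Defining markers of the testis were present, with germ cell markers summing to 874 to 1499 CPM and Sertoli cell markers to 6641 to 8384 CPM.

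Compared per length, Mast2 was the main MAST gene of these testes. Its FPKM (fragments scaled by exon length and library size, as deposited) was 24.3 and 24.4 in control and 26.8 and 26.7 in Mps1sKO libraries. Mastl followed at 5.26 and 6.00 FPKM in control and 4.59 and 3.80 FPKM in Mps1sKO testes. The other members lay between 0.447 and 1.94 FPKM. In control testes Mast3 had 1.43 and 1.94 FPKM, Mast4 had 1.25 and 1.18 FPKM, and Mast1 had 1.08 and 0.965 FPKM. No neighbours in this order overlapped between the 2 control libraries, although Mast4 and Mast1 were close. In Mps1sKO testes Mast3 had 0.447 and 0.463 FPKM and stood last, below Mast4 at 1.21 and 1.25 FPKM and Mast1 at 0.957 and 0.882 FPKM. By FPKM, Mast3 thus moved from the third to the fifth place, while the order of the other 4 genes was the same in both genotypes.

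**Figure D1:**
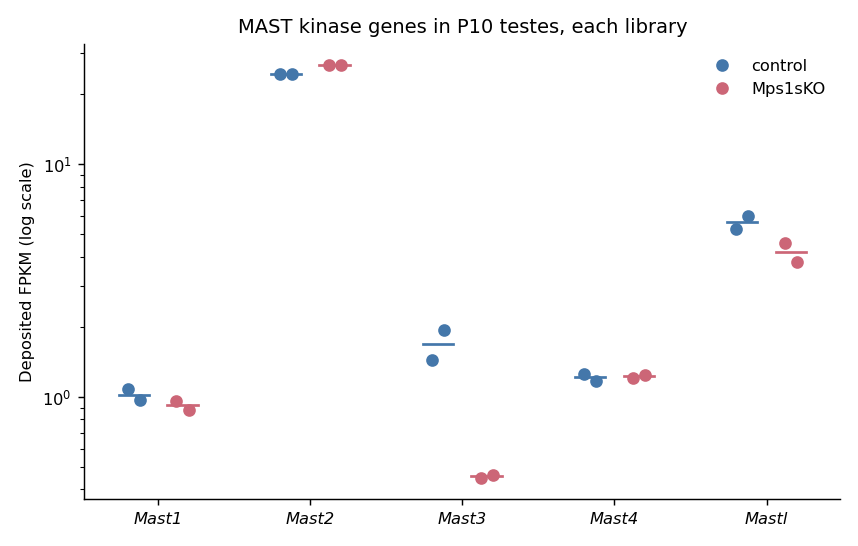
Deposited FPKM (log scale) of the 5 MAST kinase genes, with 1 point per library and a line at the mean of the 2 libraries of a genotype, control in blue and Mps1sKO in red. Mast2 lies above 24 FPKM in every library, and the Mast3 points lie at 1.43 and 1.94 in control and at 0.447 and 0.463 in Mps1sKO testes.

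The place of Mast4 depends on the length used. The deposited length is the union of all exons, 32326 bases for Mast4, while its longest coding sequence has 7854 bases. Mast4 had 0.719 times the level of Mast3 in control testes by FPKM. By CPM per kilobase of longest coding sequence, an alternative added after seeing the data, it had 1.97 times that level. On that scale Mast4 stood at 5.19 and 4.87 in the control libraries and Mast3 at 2.17 and 2.93, with Mast2 and Mastl still first and second. Mast3 thus lay below Mast4 and above Mast1 (1.49 and 1.33) in control, and last in Mps1sKO libraries, at 0.675 and 0.697.

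Mast2 made up 72.9% and 70.8% of the summed FPKM of the 5 genes in control and 78.8% and 80.7% in Mps1sKO libraries. Mast3 made up 4.30% and 5.62% in control and 1.32% and 1.40% in Mps1sKO testes. The sum itself was 33.3 and 34.5 FPKM in control and 34.0 and 33.1 FPKM in Mps1sKO testes. The summed level of the family overlapped between the genotypes, while the shares of Mast2, Mast3 and Mastl did not and those of Mast1 and Mast4 did. Mast2 had 16.9 and 12.6 times the FPKM of Mast3 in control libraries, and 59.9 and 57.8 times in Mps1sKO libraries.

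Mast3 had 232 and 335 counts in control and 62 and 74 counts in Mps1sKO libraries. After scaling these were 8.61 and 11.6 CPM against 2.68 and 2.76 CPM. Both Mps1sKO libraries lay far below both control libraries and close to each other, whereas the control libraries differed by 0.43 on the log2 scale. The means were 10.1 ± 2.12 CPM in control and 2.72 ± 0.0606 CPM in Mps1sKO testes (SD, n = 2 each), so the Mps1sKO level was 26.9% of control. The log2 fold change was −1.89 ± 0.206 (SE), the 20th lowest among the tested loci. Without control replicate 2, the library with the highest level, it was −1.66, and over all libraries left out in turn it ran from −2.09 to −1.66.

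Mastl had 825 and 1006 counts in control and 617 and 589 counts in Mps1sKO libraries, or 30.6 and 34.9 CPM against 26.6 and 22.0 CPM. The Mps1sKO libraries were both lower, though the gap between the nearest pair was smaller than the spread within either genotype. The means were 32.8 ± 3.0 CPM and 24.3 ± 3.29 CPM (SD, n = 2 each), which put Mps1sKO at 74.2% of control. The log2 fold change of Mastl was −0.43 ± 0.131 (SE), and it ran from −0.58 to −0.30 with each library left out.

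The remaining members were close to their control levels. Mast1 had 7.02 and 6.28 CPM in control and 6.21 and 5.71 CPM in Mps1sKO libraries. Both Mps1sKO values were the lower ones by a narrow margin, with a log2 fold change of −0.16 ± 0.166 (SE). Mast2 had 187.4 and 187.7 CPM in control and 205.6 and 204.8 CPM in Mps1sKO libraries. Its libraries of 1 genotype were nearly equal, both Mps1sKO values were higher, and the log2 fold change was 0.13 ± 0.083 (SE). Mast4 had 40.7 and 38.2 CPM in control and 39.2 and 40.4 CPM in Mps1sKO libraries. The Mast4 values overlapped between the genotypes, and its log2 fold change of 0.01 ± 0.0956 (SE) turned negative under some settings.

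At the study's cut-offs, which ask for an unadjusted p below 0.01 and more than a 1.5-fold change, edgeR put 0.681% of all tested loci lower and 0.146% higher in Mps1sKO testes. Mast3 was the 1 member on the lower side, and no member was on the higher side. At an unadjusted p below 0.05, 5.37% of the loci were lower and 3.92% higher, and Mast3 and Mastl were among the lower ones. Mast1, Mast3 and Mastl had both Mps1sKO libraries below both control libraries, as did 21.1% of all tested loci. Mast2 had both above, as did 20.3%. At an edgeR adjusted p below 0.05, which 0.0292% of the loci reached, there was no member. DESeq2 placed 1 member under that limit and limma-voom none. Since the choice of the genes used this contrast, nothing is read from these counts. An exact permutation test of 2 libraries against 2 cannot give a p below 0.333.

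**Figure D2:**
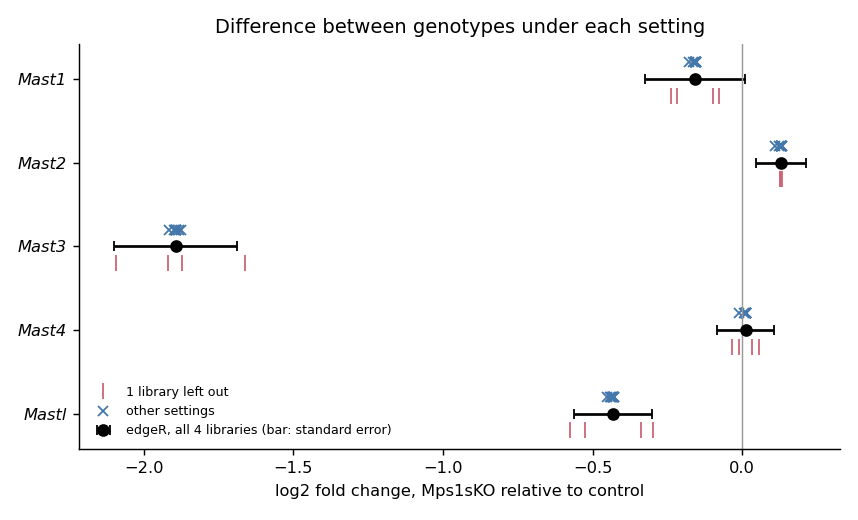
Log2 fold change of each MAST gene in Mps1sKO relative to control testes, with the edgeR value and its standard error in black, the values with 1 library left out as red ticks and those of the other settings as blue crosses. Mast3 stays between −2.09 and −1.66, Mastl between −0.58 and −0.30, and Mast4 falls on both sides of 0.

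The loci around each gene were set beside it, taking the 5 nearest tested loci on each side. Around Mast3, 8 of 10 neighbours had a negative log2 fold change, against 49.9% of all tested loci. The median of these neighbours was −0.22, while the median of all tested loci was 0.00027. Of the 10, 2 were lower at the study's cut-offs, against the 0.681% of all loci, and none was higher. Both were chosen by this rule. None of the 10 reached an edgeR adjusted p below 0.05, nor by DESeq2 or limma-voom. In edgeR 3 had an unadjusted p below 0.05, against 9.30% of all tested loci.

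The closer one, Pik3r2, encodes a regulatory subunit of phosphatidylinositol 3-kinase. It lies on the same strand as Mast3 at chr8:70768176-70776713, and its nearest end is 1404 bases from that of Mast3. Pik3r2 had 249 and 231 counts in control and 108 and 112 counts in Mps1sKO libraries. Both Mps1sKO libraries were well below the control libraries, at 51.2% of the control CPM and a log2 fold change of −0.97 ± 0.172 (SE, edgeR adjusted p = 0.494). It was past the study's cut-offs under every setting run, including each library left out.

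The other, Slc5a5, which encodes the sodium/iodide symporter, had 54 and 58 counts in control and 24 and 31 counts in Mps1sKO libraries. Its log2 fold change was −0.87 ± 0.254 (SE, edgeR adjusted p = 0.494). It was no longer past the cut-offs by DESeq2, by limma-voom, under the replicate block or with any 1 library left out. The nearest locus on the other side, Arrdc2, which encodes an arrestin-domain protein, had 54 and 171 counts in control and 20 and 69 counts in Mps1sKO libraries. These groups overlapped, the Arrdc2 counts differing more within a genotype than between genotypes (edgeR adjusted p = 0.576). Arrdc2 was past the study's cut-offs with no filter on low counts, under the replicate block, without control replicate 1 and without Mps1sKO replicate 2.

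The other 4 members had no neighbour past the study's cut-offs in the edgeR fit of all 4 libraries. Under other settings there were 2, both beside Mast1 and lower. Junb, an AP-1 subunit gene with 214 and 650 counts in control and 135 and 232 in Mps1sKO libraries, was past them with no filter on low counts, under the replicate block and without control replicate 1. Syce2, a synaptonemal complex gene, was past them without control replicate 1. The median log2 fold change of the 10 neighbours was 0.01 for Mast1, −0.05 for Mast2, −0.01 for Mast4 and −0.0025 for Mastl. Mastl begins 345 bases from the start of Yme1l1, a mitochondrial protease gene on the opposite strand, and the pair is transcribed away from each other. Yme1l1 had 4398 and 4909 counts in control and 3871 and 4390 counts in Mps1sKO libraries, and its log2 fold change was −0.01 ± 0.0848 (SE). Acbd5, a peroxisomal membrane protein gene 48 bases from the other end of Mastl, had a log2 fold change of 0.06. The nearest loci of Mast2 were Pik3r3, at −0.15, and Ipp, at 0.03. Those of Mast1 were Dnase2a, at 0.06, and Rtbdn, at 0.16. Those of Mast4 were Cd180, at 0.18, and Gm5454, at −0.09.

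**Figure D3:**
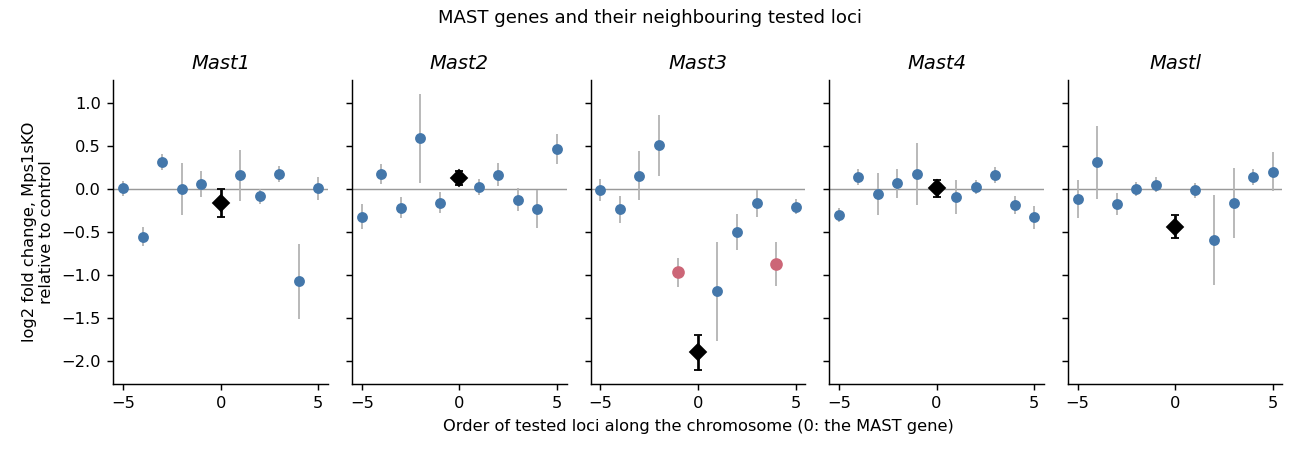
Log2 fold change (Mps1sKO relative to control, bars are standard errors) of each MAST gene, black diamond, and of the 5 tested loci on each side of it in chromosome order. Red points are the 2 neighbours past the study's cut-offs, Pik3r2 and Slc5a5, which both lie beside Mast3.

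The substrates and the phosphatase that Greatwall acts on were near their control levels. Ensa, which encodes the substrate ENSA, had 181.3 and 185.8 CPM in control and 184.2 and 183.1 CPM in Mps1sKO libraries. Arpp19, which encodes the related substrate and ARPP-16, had 140.0 and 137.1 CPM in control and 125.7 and 146.4 CPM in Mps1sKO libraries. Both genes overlapped between the genotypes, with log2 fold changes of 0.00038 for Ensa and −0.03 for Arpp19. All 14 genes of this list, which also holds the PP2A subunits, PP1 catalytic subunits and Ctdp1 (the phosphatase FCP1), were tested. None was past the study's cut-offs or had an edgeR adjusted p below 0.05, and none had an unadjusted p below 0.05 by edgeR, DESeq2 or limma-voom. Their median log2 fold change was −0.02, in a range from −0.24 to 0.20. The smallest p belonged to the scaffold subunits Ppp2r1b, at −0.24 ± 0.111 (SE, edgeR adjusted p = 0.556), and Ppp2r1a, at 0.18 ± 0.0858 (SE, edgeR adjusted p = 0.573), and to Ppp2r2a, a B55 subunit, at 0.20 ± 0.115 (SE, edgeR adjusted p = 0.619). Both Mps1sKO values lay below both control values for Ppp2r1b and above them for Ppp2r1a. Of the 14 genes 2 lay below in this way and 1 above, against 21.1% and 20.3% of all tested loci.

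Genes of mitotic entry and exit, the steps at which Greatwall acts, leaned lower. Of 17 tested, 13 had a negative log2 fold change and 11 had both Mps1sKO libraries below both control libraries, against the 21.1% of all loci. The median was −0.20. At an unadjusted p below 0.05, 7 were lower and none was higher in edgeR, against 5.37% and 3.92% of all loci, and DESeq2 and limma-voom gave 4 and 7. None was past the study's cut-offs, and none had an adjusted p below 0.05 by edgeR, DESeq2 or limma-voom. Cdc20, an activator of the anaphase-promoting complex, had 77.0 and 84.3 CPM in control and 55.8 and 65.3 CPM in Mps1sKO libraries. Its log2 fold change of −0.41 ± 0.109 (SE, edgeR adjusted p = 0.494) was the lowest of the list and close to that of Mastl. Ccnb1, which encodes cyclin B1, had a log2 fold change of −0.30 ± 0.0864 (SE), and Aurka, which encodes Aurora kinase A, −0.38 ± 0.115 (SE), both with an edgeR adjusted p of 0.494. Cdk1, which encodes the kinase whose substrates Greatwall protects, had 48.1 and 50.2 CPM in control and 49.3 and 52.5 CPM in Mps1sKO libraries. The Cdk1 values overlapped, with a log2 fold change of 0.05.

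Genes listed as binding partners of MAST1 to MAST4 gave no call. Dmd and Utrn were in the list as genes of the complex that holds the syntrophins. Of the 11 genes in the list, 10 were tested, and Sntg1 was below the filter. None was past the study's cut-offs or had a p below 0.05 by edgeR, DESeq2 or limma-voom, adjusted or not, and the median log2 fold change was 0.08. The 3 with the smallest p were Utrn (utrophin), at 0.14 ± 0.0904 (SE, edgeR adjusted p = 0.635), Sntb2 (a syntrophin), at 0.11 ± 0.0881 (SE, adjusted p = 0.701), and Dmd (dystrophin), at 0.11 ± 0.0836 (SE, adjusted p = 0.706). All 3 had both Mps1sKO libraries above both control libraries, as did 20.3% of all tested loci. No other gene of the 10 did so, and 1 had both below.

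The other AGC kinases as a list did not share the low level of Mast3. Of 54 such genes, 48 were tested, with a median log2 fold change of −0.02, in a range from −1.35 to 1.14. The lowest was Stk32c, with 95 and 5 counts in control and 29 and 6 counts in Mps1sKO libraries, which overlapped. Of the 6 genes not tested, 4 are listed at 0 in every library, Lats1 among them, so their levels are not known from this table. None was lower at the study's cut-offs and 1 was higher, against 0.681% and 0.146% of all loci. This was Prkce, which encodes protein kinase C epsilon, with 23.1 and 19.2 CPM in control and 28.2 and 35.9 CPM in Mps1sKO libraries (edgeR adjusted p = 0.494). Both Mps1sKO libraries were higher, and Prkce was no longer past the cut-offs with scaling by library size only, under the replicate block, or without control replicate 2 or Mps1sKO replicate 2. With control replicate 1 left out Sgk1 was lower, and with control replicate 2 left out Stk32c was, both named after their values were seen.

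**Figure D4:**
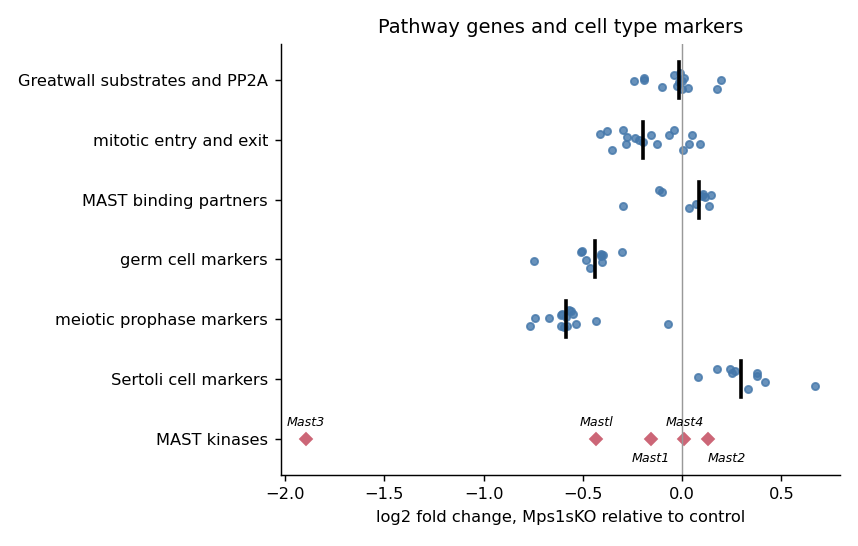
Log2 fold change (Mps1sKO relative to control) of each tested gene in 3 pathway lists and 3 cell type marker lists, with black lines at the list medians and the 5 MAST genes in red on the lowest line. Mast3 at −1.89 lies below every gene of these lists, while Mastl at −0.43 lies near the germ cell median of −0.44.

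Markers of germ cells and Sertoli cells stood at different levels in the genotypes. All 10 germ cell markers had both Mps1sKO libraries below both control libraries, as did 21.1% of all tested loci. Some margins were narrow, as for Dazl at 466.0 CPM in control replicate 1 and 463.3 CPM in Mps1sKO replicate 1. The median log2 fold change of the germ cell markers was −0.44. Their summed level was 1253 and 1499 CPM in control and 1153 and 874 CPM in Mps1sKO libraries. Of 15 meiotic prophase markers, 14 had both Mps1sKO libraries below both control libraries, against the same 21.1% of all loci. Their median was −0.59, with sums of 713 and 927 CPM against 603 and 500 CPM. The 10 tested Sertoli cell markers were all higher in the fit, with a median of 0.30, while 49.9% of all tested loci were negative. Both Mps1sKO libraries lay above both control libraries for 5 of the 10 markers, as for 20.3% of all tested loci. The Sertoli sums were 6641 and 6818 CPM in control and 8384 and 8022 CPM in Mps1sKO libraries. Clu alone gave 2900 to 4399 CPM of these sums, and its values overlapped between the genotypes. No marker of these 3 lists had an edgeR or limma-voom adjusted p below 0.05, and by DESeq2 there were 2 germ cell and 1 meiotic prophase marker. At an unadjusted p below 0.05, edgeR had 8 germ cell and 12 meiotic prophase markers lower, against 5.37% of all loci, and 4 Sertoli cell markers higher, against 3.92%. At the study's cut-offs 1 germ cell and 8 meiotic prophase markers were lower, against 0.681% of all loci, and no Sertoli cell marker was higher. The sums of Leydig cell markers (899 to 1001 CPM), peritubular myoid cell markers (853 to 981 CPM) and macrophage markers (110.0 to 121.0 CPM) overlapped between the genotypes. Endothelial cell markers summed to 127.9 and 124.0 CPM in control and to 139.4 and 129.9 CPM in Mps1sKO libraries, which did not overlap. In bulk testis RNA, fewer cells of a type and less RNA per cell cannot be told apart.

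Mastl and Mast3 differed when set against the germ cell markers. Per 1000 CPM of the summed germ cell markers, Mastl stood at 24.4 and 23.3 CPM in control and at 23.1 and 25.2 CPM in Mps1sKO libraries. These values overlapped, and the gap between the genotypes seen in plain CPM was not present on that scale. The germ cell sum leans on Dazl, which alone gave 333 to 583 CPM of it. Mast3 stood at 6.88 and 7.75 CPM per 1000 in control and at 2.32 and 3.16 CPM per 1000 in Mps1sKO libraries, which did not overlap. Per 1000 CPM of the summed meiotic prophase markers, Mast3 was at 12.1 and 12.5 CPM in control and at 4.43 and 5.52 CPM in Mps1sKO libraries. Mastl did not overlap on that scale, at 43.0 and 37.6 CPM in control and 44.1 and 44.0 CPM in Mps1sKO libraries. Both Mps1sKO values were the higher ones there, by a narrow margin over control replicate 1. The part of cell composition in the level of each gene was not tested.

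The loci with profiles most like each member were found by the root mean square distance of centred log2 CPM over the 4 libraries. For Mast3 these were Gm18962, at a distance of 0.158 with 12, 24, 2 and 3 counts, Gm17177, at 0.197 with 13, 21, 3 and 5 counts, and an unnamed locus on a patch scaffold, at 0.204 with 160, 179, 28 and 41 counts. Counts are in the order control 1, control 2, Mps1sKO 1 and Mps1sKO 2. The first 2 rest on few counts, and no locus came nearer. The closest loci of the other members were far nearer, from 0.00438 for Nelfa beside Mast2 to 0.0185 for Gm4316 beside Mastl. Plekhg4, a coding gene among the 3 nearest to Mastl, had 870, 1039, 661 and 630 counts at a distance of 0.0211. A small distance over 4 libraries is a description of these libraries, and flat profiles such as that of Mast4, nearest to Gspt1 at 0.0044, have many near matches.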

How the data were processed

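RNA sequencing covered 4 libraries of whole testes, 2 of each genotype, grouped by the genotype in their labels. NEBNext Ultra libraries were read as 150 bp pairs on a NovaSeq. The authors deposited raw counts on each locus, with no normalization, and FPKM values, for which they divided by the exon length and by a scaled library size. The submitters' processing notes name HISAT2 2.0.5, featureCounts, DESeq2 1.16.1 and mm10, without roles. Coordinates equal those of GENCODE M21.

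The test on counts was edgeR 4.0.16 under R 4.3.3 (filterByExpr, TMM, two-sided quasi-likelihood F test on genotype, Benjamini-Hochberg adjustment over 20561 loci). Each SE given was worked back from this test, as the absolute log2 fold change over the square root of F. FPKM served to compare levels between genes and for the members' shares, sums and ratios in each library, with no test. A floor of 3 counts is 0.104 to 0.129 CPM and covers counting error only. The alternatives were DESeq2 1.42.0, limma-voom (limma 3.58.1), other scalings and filters, a robust dispersion, annotated genes only, the replicate number as a block and each library left out. Scripts were tested on simulated data.

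The members and lists were chosen with earlier results of these data known. Genes named are the members, Ttk, list genes past the study's cut-offs or with the 3 smallest p, the nearest neighbours and those past the cut-offs, and the loci most like each member. Cdk1, Ensa and Arpp19 were named as list genes. Deviations of same-numbered libraries correlated at −0.19. With 2 libraries per genotype this cannot tell whether the numbers pair them, and the main test used no block. Promoter windows are from RefSeq (GRCm38.p6), matched for all 5 members by symbol.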

Additional observations from a re-analysis of the deposited data

How the results depend on the processing

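With 2 libraries per genotype, p-values rest on the spread shared across loci, and where a library was left out the lone library was assumed to vary like the others. The log2 fold changes of Mast1, Mast3 and Mastl kept their sign in all 13 settings run for them. With 1 library left out they ran from −0.24 to −0.08 for Mast1, −2.09 to −1.66 for Mast3 (−1.66 without control replicate 2) and −0.58 to −0.30 for Mastl, and from 0.1265 to 0.1328 for Mast2 and −0.04 to 0.06 for Mast4. Mast2 was at 0.1084 with library size only and at 0.1233 with at least 10 counts in every library, against 0.1297.

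The loci with an edgeR adjusted p below 0.05 numbered 6, and 390 with no filter on low counts, 3 with at least 10 counts, 32 by DESeq2, 3 by limma-voom, 3 with annotated genes only, 2 with the replicate number as a block and 8 to 111 with a library left out (111 and 40 without control replicate 1 or 2, and 21 without Mps1sKO replicate 2). At the study's cut-offs 140 were lower and 30 higher, which became 339 and 135 with no filter. With a library left out they ran from 78 to 296 lower (296 and 78 without control replicate 1 or 2, and 256 without Mps1sKO replicate 1) and from 65 to 172 higher (172 and 70 without control replicate 1 or 2, 84 and 65 without Mps1sKO replicate 1 or 2). A crossed pairing, chosen after seeing the data, gave 550, with 71 higher. The block left the members' values at −0.16, 0.13, −1.88, 0.01 and −0.43 from Mast1 to Mastl.

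Ttk was at −1.27 with at least 10 counts (adjusted p = 0.0573), −1.26 by limma-voom (0.0745), −1.26 under the block (0.224) and −1.26 with annotated genes only (0.0509), past the threshold in none of these 4, and at −1.37 to −1.15 with a library left out. Of the 50 neighbouring loci 2 were past the study's cut-offs, 4 with no filter, 1 by DESeq2, 1 by limma-voom and 1 to 4 with a library left out (4 without control replicate 1, 1 without control replicate 2 or Mps1sKO replicate 1). Among AGC kinases, 1 was higher and none lower. The AGC kinase that was higher under the replicate block, or without control replicate 2, was a gene other than Prkce. With library size only 0 were higher, and with no filter 2 were higher and 1 lower. With a library left out 0 to 1 were higher and 0 to 1 lower. The cause of these shifts was not tested.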
